A study of Mus musculus with 52 samples.

Results

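DMBA, 7,12-dimethylbenz[a]anthracene, and DBP, dibenzo[a,l]pyrene, are polycyclic aromatic hydrocarbons that the labels class as genotoxic. Their arrays were taken by title and numbered 8 of the 52 arrays of the series, 1 for each chemical at 4 h, 20 h, 14 days and 28 days after dosing. They were read against the 4 olive oil arrays of the same times, the control that both chemicals share, and 16 saline control arrays, 4 at each time, showed how far the olive oil array itself stood from other undosed livers. All were liver arrays of male B6C3F1 mice, 9 weeks old by the study's methods, given a single intraperitoneal injection. DMBA was given at 20 mg/kg and DBP at 6 mg/kg, so that their values stand side by side and were not tested against each other. AAT (o-aminoazotoluene), given at 300 mg/kg and sharing the same olive oil arrays, is quoted beside them for a few genes. The saline controls carry the titles ENU, DMN, DPN and Saline control and are given in that order. RNA of 5 mice was pooled for each array, so that no array shows the spread between mice, and there was 1 array for each chemical and time. The 2 chemicals were therefore taken as 2 replicates of 1 class, and a p-value measures the spread between 2 chemicals and between control arrays. In whole liver, fewer cells of a type and less RNA per cell cannot be told apart.

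Hydrocarbons of this kind are planar molecules that can bind the dioxin receptor (aryl hydrocarbon receptor, Ahr). With its partner Arnt, the receptor binds DNA at the core motif GCGTG and switches on Cyp1a1, Cyp1a2 and Cyp1b1, the enzymes that oxidise the hydrocarbon. With epoxide hydrolase, the same enzymes can form diol epoxides that attach to DNA bases as bulky adducts. Adducts are removed by nucleotide excision repair, and damaged DNA can activate the p53 protein, whose targets include the cell cycle inhibitor Cdkn1a. DMBA carries methyl groups on a benz[a]anthracene frame, whereas DBP is built on pyrene and carries none.

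The stretches of 250 bases before the starts of 3 genes that the results turn on are shown here, from RefSeq on GRCm38.p6. They are Cyp1a1, the main readout of the dioxin receptor, and the metallothionein genes Mt1 and Mt2, metal-binding proteins that stood high with DMBA at the late times. Cyp1a1 is shown at chr9:57697363-57697612, Mt1 at chr8:94178839-94179088 and Mt2 at chr8:94172368-94172617, each on the plus strand. Capitals mark GCGTG in Cyp1a1 and the metal-responsive motif, TGCACNC or TGCGCNC on either strand, in Mt1 and Mt2.
Cyp1a1: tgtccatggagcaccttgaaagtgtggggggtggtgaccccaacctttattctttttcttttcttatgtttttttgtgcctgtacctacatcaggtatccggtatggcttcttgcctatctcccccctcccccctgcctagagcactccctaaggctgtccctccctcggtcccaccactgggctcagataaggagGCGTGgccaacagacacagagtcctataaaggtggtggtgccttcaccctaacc
Mt1: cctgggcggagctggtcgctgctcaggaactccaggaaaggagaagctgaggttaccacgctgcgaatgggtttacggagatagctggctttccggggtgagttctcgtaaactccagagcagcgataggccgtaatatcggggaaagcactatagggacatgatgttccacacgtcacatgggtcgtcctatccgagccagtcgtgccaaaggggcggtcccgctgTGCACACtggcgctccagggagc
Mt2: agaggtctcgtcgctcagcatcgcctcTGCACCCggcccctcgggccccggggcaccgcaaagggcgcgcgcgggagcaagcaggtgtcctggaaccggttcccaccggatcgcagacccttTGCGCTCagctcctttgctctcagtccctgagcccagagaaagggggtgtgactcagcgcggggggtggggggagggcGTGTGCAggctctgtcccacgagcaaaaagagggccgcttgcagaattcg

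Cyp1a1 held 1 match to GCGTG, 54 to 50 bases before its start. Mt1 held 1 metal-responsive match, 23 to 17 bases before the start, and Mt2 held 3. The match of Mt2 nearest to the start, on the minus strand 50 to 44 bases before it, overlapped a match to GCGTG, and Mt1 also held GCGTG on the minus strand. Of 32851 promoter stretches of this length, 28.2% held GCGTG and 21.4% held the metal-responsive motif on either strand, and a match is no more than a description of the letters.

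Values below are log2 signals after division of each array by its median, with a floor at 5.02, and ratios are differences of these log2 signals. A probe set was called a common change when both chemicals were at least 2-fold from olive oil in the same direction and both lay outside the range of all 5 controls of that time. Signal over the floor was alike on the 12 hydrocarbon and olive oil arrays, where 85.6% to 88.0% of the tested probe sets lay above it. No 2 arrays correlated above 0.983. DMBA differed at least 2-fold from olive oil at 1.65%, 1.54%, 3.24% and 1.97% of the 18349 tested probe sets at the 4 times, and DBP at 2.01%, 1.87%, 3.94% and 1.56%. At each time the share for either hydrocarbon lay inside or below the range of the saline pairs of that time, which was 2.81% to 3.92%, 2.49% to 3.83%, 3.01% to 7.41% and 2.29% to 3.42%.

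Of the dioxin receptor targets, Cyp1a1 alone had both hydrocarbons above all 5 controls at 20 h, and no target was called against olive oil by limma, with 0 of 9 at an unadjusted p under 0.05 at each time. Over all probe sets limma called 7, 10, 70 and 5 at 4 h, 20 h, 14 days and 28 days, which is 0.0381%, 0.0545%, 0.381% and 0.0272% of the 18349 tested. Of the 9 measured targets, 0, 1, 1 and 0 had both chemicals above the 5 controls at the 4 times, and 1, 0, 0 and 1 had both below. Over all 10755 genes, 4.67%, 3.57%, 3.73% and 4.46% had both chemicals above the 5 controls at these times, and 5.94%, 3.89%, 3.58% and 5.97% had both below.

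Cyp1a1 stood at 7.66 with DMBA and 6.16 with DBP at 4 h, where olive oil gave 7.19 and saline 5.46 to 7.01. At 20 h it stood at 8.54 with DMBA, 6.97 with DBP, 6.77 with olive oil, and 6.83, 6.27, 6.54 and 6.65 in the saline controls. DMBA was thus clear of all controls, and DBP only just above the highest of them. The mean ratio of the hydrocarbons to olive oil was 0.99 with an SE of 0.73 (limma adjusted p = 1). AAT, at its dose of 300 mg/kg, gave 11.59 at 4 h and 12.36 at 20 h, so that the probe set could register a far higher level. At 14 days Cyp1a1 was 7.05 and 6.50 against 6.42 in olive oil and 5.94 to 7.20 in saline, and at 28 days it was 6.92 and 6.77 against 6.02 and 5.67 to 7.33, so that the groups overlapped.

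Cyp1a2, the main constitutive member of this enzyme family in liver, gave 12.28 and 12.17 at 4 h against 12.20 in olive oil. It gave 12.06 and 11.78 at 20 h, where olive oil at 11.66 and both chemicals lay below the saline range of 12.20 to 12.48. Nqo1, a quinone reductase that the receptor and Nrf2 both induce, was highest with DMBA at 14 days, at 7.04 against 6.28 with DBP, 6.27 in olive oil and 5.74 to 6.40 in saline. Tiparp, a target that feeds back on the receptor, was at 7.24 and 7.39 at 28 days, below olive oil at 7.50 and just below saline at 7.40 to 7.69. The receptor itself, Ahr, lay above all controls at 14 days, at 8.52 and 8.37 against 7.93 in olive oil and 7.61 to 8.29 in saline, with a mean ratio of 0.51 (SE 0.25, limma adjusted p = 0.72).

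Enzymes that oxidise and conjugate hydrocarbons stayed near the olive oil level. None of 20 measured genes was called by limma, with 0 at an unadjusted p under 0.05 at each time, and the mean ratios to olive oil ran from -0.45 to 0.55. At 20 h the olive oil array itself was low for these genes, with a median olive oil minus saline difference of -0.51. Ephx1, the microsomal epoxide hydrolase that converts arene epoxides to diols, stood at 11.51 and 11.42 at 4 h beside 11.54 in olive oil. Gstm3, a glutathione transferase, was above all 5 controls at both late times, with 10.57 and 10.38 at 14 days against 9.92 in olive oil and 9.45 to 10.20 in saline, and 10.38 and 10.63 at 28 days against 10.26 and 9.81 to 10.20.

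**Figure D1:**
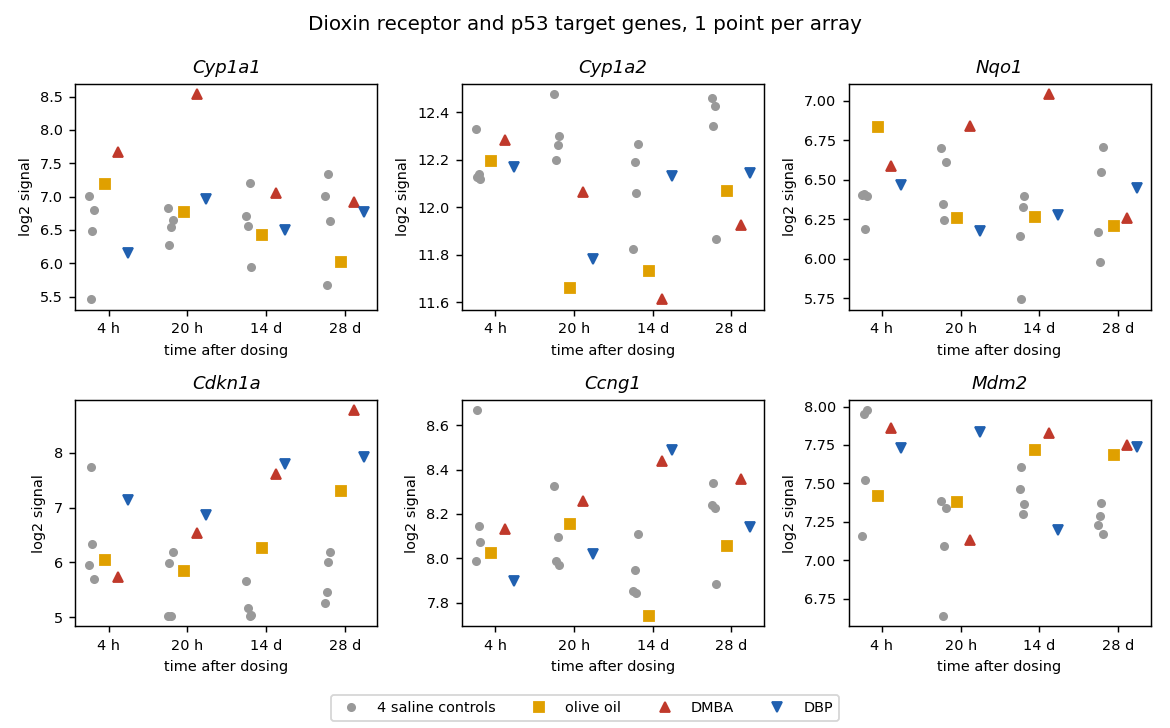
Log2 signal of 3 dioxin receptor targets (Cyp1a1, Cyp1a2, Nqo1) and 3 p53 targets (Cdkn1a, Ccng1, Mdm2) against time after dosing, 1 point per array, for DMBA, DBP, olive oil and the 4 saline controls. Cyp1a1 with DMBA stands above all controls at 20 h, at 8.54, and Cdkn1a with both chemicals stands above all 5 controls at every time but 4 h.

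More p53 targets stood above the controls at the late times than in the first day. Of 29 measured targets, 1, 2, 6 and 6 had both chemicals above all 5 controls at 4 h, 20 h, 14 days and 28 days, and 2, 1, 0 and 3 had both below, with 0 called by limma at any time and 2, 1, 4 and 1 at an unadjusted p under 0.05. Over all 10755 genes, 229, 228, 714 and 230 had an unadjusted limma p under 0.05, so that 14 days was highest there too. The same background holds for such counts of the lists below. The median mean ratio of the list lay between -0.04 and 0.05, beside medians of 0 to 0.05 over all genes. On the values as deposited, without scaling, the 6 genes above the controls at 14 days became 1.

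Cdkn1a, which encodes the p21 inhibitor of cyclin-dependent kinases, overlapped the controls at 4 h, at 5.74 with DMBA and 7.13 with DBP against 6.05 in olive oil and 5.70 to 7.75 in saline. At 14 days it stood at 7.62 with DMBA, 7.79 with DBP, 6.25 with olive oil, and 5.66, 5.17, 5.02 and 5.04 with saline. At 28 days it stood at 8.77 with DMBA, 7.91 with DBP, 7.30 with olive oil, and 5.26, 5.46, 6.00 and 6.19 with saline. At both late times the hydrocarbons stood above the olive oil array, and that array above the saline controls, with no overlap. AAT was above both hydrocarbons, at 8.59 at 14 days and 8.87 at 28 days. The ratio to olive oil at 14 days was 1.45 (SE 0.70, limma adjusted p = 0.71) and that to saline was 2.48 (adjusted p = 0.059). At 28 days the ratio to olive oil was 1.05 (adjusted p = 1) and that to saline 2.62 (adjusted p = 0.047), while olive oil itself stood 1.57 over saline (adjusted p = 0.94).

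Other p53 targets stood above the 5 controls with the hydrocarbons at 14 days. Ccng1, cyclin G1, stood at 8.44 and 8.49 against 7.74 in olive oil and 7.84 to 8.11 in saline, a ratio of 0.73 (SE 0.24, limma adjusted p = 0.39). Fas, the death receptor, stood at 6.32 and 6.60 against 5.07 and 5.02 to 5.78 (ratio 1.40, adjusted p = 0.57). Trp53inp1, a stress protein that acts with p53, was at 8.57 with DBP and higher still with DMBA, against 8.01 and 7.53 to 8.36. These 3 genes, with Cdkn1a, Bbc3 and Btg2, made up the 6 above the controls at that time. Phlda3, an inhibitor of Akt signalling, was outside the controls only with DMBA of the 2 hydrocarbons, at 7.69 against 7.02 with DBP. AAT was above both hydrocarbons at 14 days for Ccng1, at 8.59, and for Phlda3, at 7.88. For Btg2 it was below both, at 7.035 against 7.63 and 7.22.

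At 28 days Mdm2, the ubiquitin ligase that degrades p53, stood at 7.75 and 7.74, just above olive oil at 7.69 and above saline at 7.17 to 7.37. Plk2 gave 6.49 and 6.64 against 6.13 and 5.74 to 6.33, and Zmat3 gave 5.98 and 6.25 against 5.55 and 5.02 to 5.73. Pidd1, a p53-induced adaptor of caspase activation, was a common change at 4 h, at 6.45 and 6.03 against 5.02 in olive oil and 5.46 to 5.93 in saline. It was again above all controls at 28 days, at 6.22 and 5.72 against 5.02 in all 5 controls. Sesn2, Plk3 and Perp, which are p53 targets too, had both chemicals below the controls at 28 days. Aen, a nuclease induced by p53, had both chemicals beyond the controls at no time, and Bax and Gdf15 were not measured here.

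The acute phase list holds proteins that the liver makes in inflammation under IL-6, IL-1 and Stat3, with metallothioneins and chemokines, and it had more members above the controls at 20 h than any other list. Of 31 measured genes, 1, 13, 9 and 0 had both chemicals above all 5 controls at the 4 times, and 0, 0, 1 and 0 had both below, with 0 called by limma against olive oil and 0, 0, 4 and 2 at an unadjusted p under 0.05. At 20 h the 13 included Lcn2, Mt1, Mt2, Orm1, Saa2, Serpina3n, Socs3 and Stat3. The olive oil array lay high as well at 20 h, with a median olive oil minus saline difference of 0.42 for the list, and the median mean ratio of the hydrocarbons to olive oil was only 0.13, beside 0.01 over all genes.

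Lcn2, a protein that binds the iron carriers of bacteria, shows this pattern. At 20 h it stood at 12.20 with DMBA, 12.39 with DBP, 12.05 with olive oil, and 5.90, 8.49, 10.90 and 7.06 with saline. The DMBA, DBP and olive oil arrays were close together and above every saline array. Mt2 stood at 12.44 with DMBA, 12.39 with DBP, 11.89 with olive oil, and 9.46, 9.54, 8.99 and 8.43 with saline. Its ratio to olive oil was 0.52 (limma adjusted p = 1), whereas its ratio to saline was 3.31 (adjusted p = 0.015) and olive oil exceeded saline by 2.79 (adjusted p = 0.20). Serpina3n, an acute phase protease inhibitor, gave 12.10 and 12.09 against 11.87 in olive oil and 10.30 to 10.75 in saline, with a ratio to saline of 1.60 (adjusted p = 0.041).

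**Figure D2:**
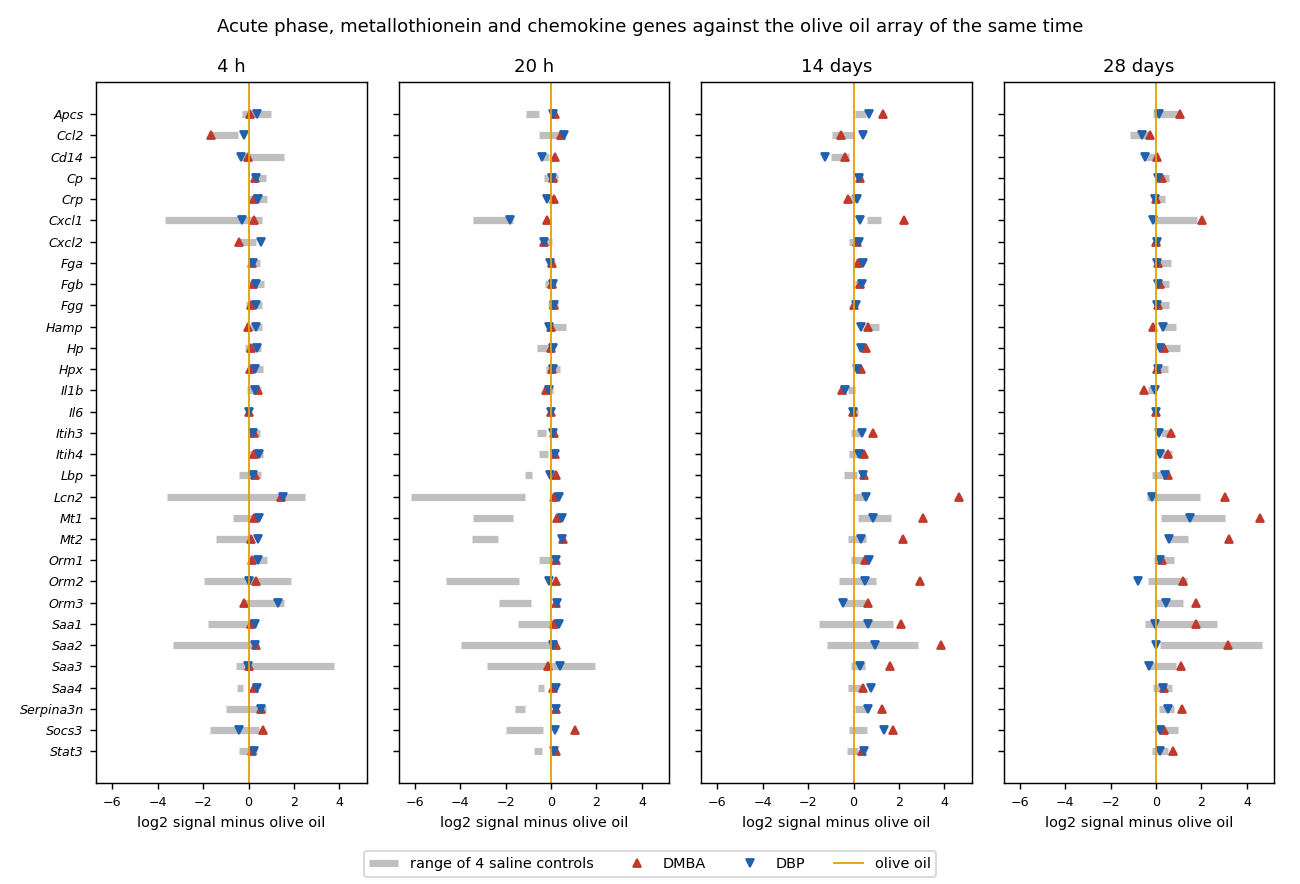
Log2 signal of 31 acute phase genes minus that of the olive oil array of the same time, 1 panel per time and 1 row per gene, with triangles for DMBA and DBP, a grey bar for the range of the 4 saline controls and a line at 0 for olive oil. At 20 h the saline bars of many genes, such as Mt1 and Mt2, lie wholly left of the line, and at 14 and 28 days the DMBA points of Mt1, Mt2 and Lcn2 lie far to the right while the DBP points stay within the range of the controls.

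At the late times part of the acute phase list was high with DMBA while DBP lay among the controls. A change of DMBA alone means that DMBA was at least 2-fold from olive oil and outside the 5 controls while DBP lay inside their range, and the reverse holds for DBP. By this rule 8 acute phase genes were changes of DMBA alone at 14 days and 8 at 28 days, against 1 and 0 of DBP alone. On the values as deposited the counts for DMBA were 4 and 5. Over all tested probe sets, 191 were changes of DMBA alone at 14 days, 1.04%, and 131 at 28 days, 0.714%. Changes of DBP alone numbered 273, 1.49%, and 107, 0.583%.

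Mt1 at 28 days stood at 11.94 with DMBA, 8.88 with DBP, 7.37 with olive oil, and 10.19, 9.04, 10.42 and 7.58 with saline. DMBA was above all controls and DBP lay inside their range, which was wide. Mt2 at 28 days was 10.95 with DMBA and 8.33 with DBP against 7.74 in olive oil and 8.23 to 9.14 in saline. At 14 days the same genes gave 11.13 and 8.92 for Mt1 against 8.06 and 8.24 to 9.70, and 10.40 and 8.59 for Mt2 against 8.25 and 8.01 to 8.79. Both genes are those whose metal-responsive motifs are shown above.

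Lcn2 gave 10.04 with DMBA and 5.91 with DBP at 14 days, against 5.38 in olive oil and 5.38 to 5.93 in saline. At 28 days it gave 8.46 and 5.26 against 5.44 and 5.02 to 7.39. Saa2, a serum amyloid A protein, gave 11.24 and 8.34 at 14 days against 7.38 and 6.23 to 10.21, so that DMBA stood above a wide control range. Cxcl1, a chemokine that attracts neutrophils, gave 7.74 and 5.80 at 14 days against 5.52 and 6.11 to 6.74, and 7.86 and 5.70 at 28 days against 5.83 and 5.65 to 7.64. The summed signal of the neutrophil markers, on the log2 scale, ran from 8.85 to 9.35 with DMBA, 9.10 to 9.64 with DBP and 8.80 to 9.42 with saline over the 4 times. At 14 days, where Lcn2, Saa2 and Cxcl1 were high with DMBA, this sum was below all 5 controls with DMBA. It was 8.847, against 9.115 with olive oil and 8.996 to 9.246 with saline. With DBP it was above all 5 controls at 20 h, at 9.64 against 9.246 and 9.266 to 9.338. At 28 days DMBA was above all 5 controls in the summed markers of several cell types, of which the endothelial ones are given further below. Those of neutrophils were at 9.35, against 9.10 with DBP, 9.28 with olive oil and 8.80 to 9.28 with saline. Those of Kupffer cells and macrophages were at 12.12, against 11.71, 11.8 and 11.55 to 11.98, and those of stellate cells and fibroblasts at 11.69, against 11.37, 11.4 and 11.18 to 11.47. The part of these cells in the result was not tested. The doses of the chemicals differed, and with 1 array each these differences have no replicate check.

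Socs3, the feedback inhibitor of Stat3 signalling, was a common change at 14 days, at 7.62 with DMBA and 7.22 with DBP against 5.88 in olive oil and 5.69 to 6.48 in saline, a ratio of 1.54 (limma adjusted p = 0.67). Fgl1, a hepatocyte protein induced by IL-6, stood at 11.62 with DMBA, 10.54 with DBP, 8.85 with olive oil and 8.86, 9.56, 8.47 and 9.36 with saline at 14 days, so that both chemicals were clear of all controls (ratio 2.23, SE 0.82, adjusted p = 0.51). At 28 days only DMBA was beyond the controls, at 12.01 against 10.32 with DBP, 9.28 with olive oil and 8.79 to 11.13 with saline.

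Il1r1, the receptor for IL-1, was a common change at both 20 h and 28 days. At 20 h it stood at 7.92 with DMBA, 7.46 with DBP, 5.19 with olive oil, and 5.44, 5.02, 5.27 and 5.02 with saline. Both chemicals were far above all 5 controls, with a ratio of 2.50 to olive oil (SE 0.74, limma adjusted p = 1) and of 2.50 to saline (adjusted p = 0.047). At 28 days it stood at 7.86 and 6.27 against 5.02 in olive oil and 5.02 to 6.03 in saline. At 14 days DMBA at 6.52 and DBP at 5.43 were also above olive oil at 5.02 and saline at 5.02 to 5.04. At 4 h all groups were higher, at 9.37 and 9.48 against 8.80 and 6.21 to 8.98, with both hydrocarbons again above every control.

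Genes of fasting and glucocorticoid action stood above the controls mainly at 4 h. Of 17 measured, 6 had both chemicals above all 5 controls at 4 h, and 1, 3 and 2 at the later times, with 0 called by limma and 1, 1, 3 and 1 at an unadjusted p under 0.05. On the values as deposited the 6 became 2. Igfbp1, a liver-secreted IGF-binding protein that insulin represses, stood at 11.75 with DMBA, 11.20 with DBP, 10.11 with olive oil, and 9.07, 9.87, 10.46 and 8.58 with saline (ratio 1.37, SE 0.89, adjusted p = 1). Ddit4, an inhibitor of mTORC1, stood at 8.24 and 8.17 against 7.04 in olive oil and 6.20 to 7.58 in saline. Both were common changes. The glucose-6-phosphatase gene G6pc gave 11.13 and 10.93 against 10.25 and 10.43 to 10.83, and Tat, which degrades tyrosine, gave 12.66 and 12.90 against 12.43 and 11.83 to 12.41.

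Fkbp5, a classical glucocorticoid target, was higher than in all controls at several times. It gave 10.48 and 10.29 at 4 h against 10.29 in olive oil and 8.70 to 9.92 in saline, and 9.01 and 8.65 at 20 h against 8.22 and 8.15 to 8.43. At 28 days it gave 9.23 and 8.66 against 7.92 and 7.64 to 8.07. At 4 h the olive oil array was as high as the hydrocarbons, and at 20 h and 28 days it lay inside the saline range while both hydrocarbons lay above it.

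Cholesterol synthesis genes, which the factor SREBP-2 switches on when sterols are low, stood above the controls at 14 days. Of 18 measured, 7 had both chemicals above all 5 controls, and none below, and the median mean ratio to olive oil was 0.66, with 0.92 for DMBA and 0.46 for DBP, beside 0.05 over all genes. None was called by limma, with 3 at an unadjusted p under 0.05, and on the values as deposited the 7 became 0. Cyp51 stood at 8.77 with DMBA, 8.31 with DBP, 7.21 with olive oil and 6.99, 8.06, 6.35 and 7.56 with saline (ratio 1.33, adjusted p = 0.67). Hmgcs1, the synthase before the rate-limiting reductase, gave 11.02 and 10.60 against 9.52 and 9.31 to 10.60, and Sqle, which makes squalene epoxide, gave 8.97 and 8.53 against 7.51 and 6.47 to 8.01. Both chemicals were at or above the top of a wide saline range, and olive oil lay inside it. At 4 h, 3 genes of the list lay below the controls.

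Of 18 fatty acid synthesis genes, 5, 5, 0 and 5 had both chemicals below all 5 controls at 4 h, 20 h, 14 days and 28 days, and none had both above. None was called by limma against olive oil, with 0, 0, 1 and 0 at an unadjusted p under 0.05. Srebf1, the factor that drives this pathway, and Gpam, which starts triglyceride synthesis, were among them at all 3 of these times. Gpam gave 10.26 and 10.07 at 4 h against 10.35 in olive oil and 10.38 to 11.26 in saline, 10.55 and 10.24 at 20 h against 10.56 and 10.70 to 11.55, and 10.21 and 10.15 at 28 days against 10.49 and 10.65 to 11.23. The olive oil array was below the saline controls at each of these times, and the hydrocarbons lay a little below it. Cyp4a14, a fatty acid hydroxylase induced through PPAR alpha, was a common change at 14 days, at 9.13 with DMBA and 8.22 with DBP against 7.15 in olive oil and 5.05 to 7.74 in saline (ratio 1.53, adjusted p = 0.90 by limma). At 28 days it stood at 9.75 with DMBA and 7.18 with DBP, against 6.78 and 5.02 to 6.98.

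Among 17 clock genes, 0, 3, 2 and 3 were departures of the olive oil array at the 4 times. An olive oil departure means that olive oil was at least 2-fold from both chemicals in the same direction and outside the 4 saline controls while both chemicals lay inside their range. Nr1d1, a repressor in the liver clock, stood at 5.05 with DMBA, 5.64 with DBP, 7.06 with olive oil and 8.36, 8.15, 7.84 and 6.63 with saline at 4 h. Both hydrocarbons were below all 5 controls, with a ratio of -1.71 to olive oil (SE 0.60, limma adjusted p = 1) and of -2.40 to saline (adjusted p = 0.030). At 28 days it was an olive oil departure in the opposite direction, at 7.54 and 8.32 against 5.93 in olive oil and 6.92 to 8.43 in saline, and it was another at 20 h, at 8.20 and 8.21 against 7.07 and 7.85 to 8.27, and at 14 days, at 8.15 and 8.54 against 6.69 and 8.09 to 9.02.

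Bhlhe40, a clock-linked repressor, gave 8.80 and 8.17 at 14 days against 6.02 in olive oil and 8.08 to 9.04 in saline. Per1, a core clock gene, gave 7.11 and 6.63 at 20 h against 5.02 and 5.71 to 7.75, and 6.64 and 6.45 at 28 days against 5.02 and 5.96 to 7.34. In each of these the hydrocarbons stood inside the saline range and olive oil below every saline control. AAT also lay below every saline control for Bhlhe40 at 14 days, at 6.55, and was at the floor for Per1 at 20 h. Over all tested probe sets, olive oil departures numbered 30, 38, 69 and 24 at the 4 times, 0.163%, 0.207%, 0.376% and 0.131%.

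Of the 7, 10, 70 and 5 probe sets that limma called against the shared olive oil array, 2, 1, 15 and 2 were higher with the hydrocarbons. At an unadjusted p under 0.05 the counts were 419, 421, 1292 and 385. The same olive oil arrays differed from the saline controls at 15, 26, 86 and 10 probe sets, 0.0817%, 0.142%, 0.469% and 0.0545%. The contrasts share the olive oil array. Of the probe sets called against it, 6 of 7, 9 of 10, 53 of 70 and 3 of 5 were also called in olive oil against saline with the opposite sign, and in 6, 9, 46 and 3 both chemicals lay inside the saline range. Against saline, 1, 1, 5 and 2 of them were called with the same sign. More than 14 of the 28 arrays had no signal above the floor for 6, 10, 55 and 5 of these probe sets, so that most calls rest on dim ones.

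Herpud1, a protein of endoplasmic reticulum stress, was an olive oil departure at 14 days. It stood at 10.81 with DMBA, 10.97 with DBP, 8.80 with olive oil, and 10.12, 11.35, 10.58 and 10.82 with saline. The hydrocarbons were 2.09 above olive oil (SE 0.39, limma adjusted p = 0.014), olive oil was 1.91 below saline (adjusted p = 0.014), and the hydrocarbons differed from saline by 0.18 (adjusted p = 0.94). A further probe set of the gene was 1.56 above olive oil (limma adjusted p = 0.033). At 20 h a probe set of the gene other than the first was a common change, higher with both chemicals. The first was no longer called against olive oil without the DPN control (adjusted p = 0.058), DMBA (0.11) or DBP (0.17). Man1a2, a mannosidase of glycoprotein processing, gave 7.00 and 7.17 against 5.02 in olive oil and 6.91 to 7.27 in saline at 14 days (ratio 2.06, adjusted p = 0.00022), where olive oil was at the floor and the ratio is a lower bound.

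Apln, a peptide hormone gene, gave 7.74 and 7.63 against 5.42 and 7.40 to 7.98 at 4 h (ratio 2.26, limma adjusted p = 0.017, and 0.065 without the DMN control or 0.051 without DBP). Zbtb7b, a transcription factor, gave 8.66 and 8.72 against 6.88 and 8.26 to 9.15 at 14 days (ratio 1.81, adjusted p = 0.0027). Nt5e at 28 days was at 6.61 with olive oil and at the floor in all others, and Exosc8 at 20 h was at 6.41 with olive oil and at the floor in all others. In each case the olive oil array stood alone and the hydrocarbons lay with the saline controls.

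**Figure D3:**
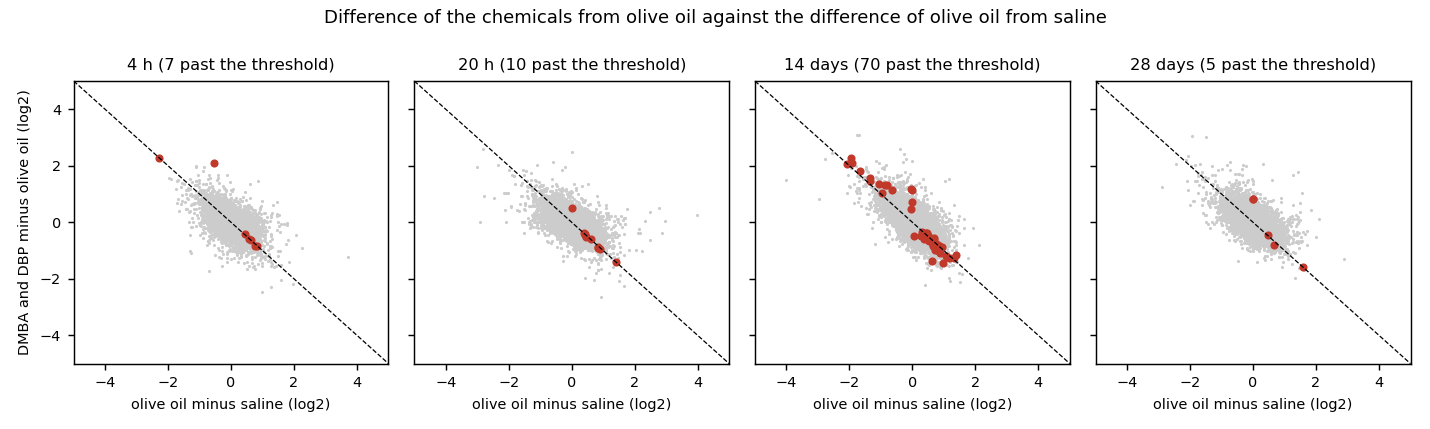
Mean log2 ratio of DMBA and DBP to olive oil against the log2 difference of olive oil from the 4 saline controls, 1 point per probe set and 1 panel per time, with probe sets called by limma against olive oil marked and a dashed line where the hydrocarbons equal saline. Most marked points lie near the dashed line, as Herpud1 does at 14 days with 2.09 and -1.91, and both axes share the olive oil array.

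A few probe sets were called both against olive oil and against saline with the same sign. At 4 h the dimmer probe set of B3galt1, a galactosyltransferase, stood at 7.02 with DMBA, 7.45 with DBP, 5.13 with olive oil, and 5.02, 5.69, 6.57 and 5.37 with saline. The hydrocarbons rose by 2.10 over olive oil (SE 0.34, limma adjusted p = 0.017) and by 1.57 over saline (adjusted p = 0.016). The brighter probe set of that gene gave 7.91 and 8.65 against 6.60 and 5.85 to 7.43, with a ratio of 1.68 to olive oil that was not called (adjusted p = 1). The call of the dimmer one was lost without the DMN control (adjusted p = 0.14), the Saline control (0.072), DMBA (0.0505) or DBP (0.30).

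At 14 days one probe set of Malat1, a long nuclear RNA, stood at 6.22 and 6.24 against 5.07 in olive oil and 5.02 to 5.40 in saline (ratio 1.16, limma adjusted p = 0.0026), whereas its brighter probe set gave a ratio of 0.32 (adjusted p = 0.97). Gm6958 stood at 6.06 and 6.25 at 14 days with all 5 controls at the floor (ratio 1.13, adjusted p = 1.6e-06). Zbp1 at 20 h gave 5.64 and 5.38 (adjusted p = 0.042), and Supt20 and Safb2 at 28 days gave 5.96 and 5.76, and 5.94 and 5.74. In these last 4 the controls were at or within 0.02 of the floor, so that each is a step of a dim probe set above it. The floor sets the ratio of Gm6958, a probe set above it on 6 of the 28 arrays, and the controls there have no measured spread.

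Against saline alone, 13, 59, 16 and 16 probe sets were called at the 4 times, 0.0708%, 0.322%, 0.0872% and 0.0872%. At 20 h they included Gas6, a ligand of the TAM receptors, at 9.38 and 9.03 against 7.62 to 8.02 in saline (ratio 1.41, limma adjusted p = 0.00023), with olive oil at 9.39. They also included Car3, a carbonic anhydrase abundant in liver and fat, at 11.55 and 11.54 against 12.71 to 13.04 (ratio -1.30, adjusted p = 0.00048), with olive oil at 11.71. For both genes the olive oil array lay with the hydrocarbons, so that the vehicle and the chemical cannot be told apart in the contrast with saline.

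Common 2-fold changes numbered 37, 32, 73 and 29 probe sets at the 4 times, 0.202%, 0.174%, 0.398% and 0.158% of those tested, of which 19, 19, 51 and 25 were higher. Without the saline check, 100, 97, 215 and 89 probe sets had been 2-fold from olive oil in both chemicals in the same direction. At the first times, changes of DMBA alone numbered 89 and 79 at 4 h and 20 h, 0.485% and 0.431%, and those of DBP alone 142 and 115, 0.774% and 0.627%. Of the genes among the common changes, 131 were so at 1 time, 5 at 2 times and 3 at 3 times.

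The 3 genes at 3 times were St3gal5, Zbtb16 and Ikzf1, and the 5 at 2 times were Il1r1, Lpin1, Angptl8, G0s2 and Samhd1, the last higher at one time and lower at the other. St3gal5, which makes the ganglioside GM3, stood at 9.01 with DMBA, 9.18 with DBP and 7.07 with olive oil at 20 h, with saline at 7.72 to 8.51. It gave 8.21 and 8.35 against 6.38 and 6.65 to 7.84 at 14 days, and 8.97 and 8.80 against 6.86 and 6.24 to 8.41 at 28 days. At all 3 times the hydrocarbons were above every control, and olive oil was below every saline control at 20 h and 14 days. The brightest probe set of St3gal5 gave smaller ratios to olive oil, 0.20, 0.90, 0.41 and 0.69 at the 4 times.

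Zbtb16, a zinc finger factor that glucocorticoids induce, gave 7.85 and 6.73 at 20 h against 5.45 in olive oil and 5.02 to 6.68 in saline. It gave 6.70 and 7.63 at 14 days against 5.02 and 5.02 to 5.98, and 7.89 and 7.32 at 28 days against 5.52 and 5.02 to 5.74. At 4 h the olive oil array, at 7.97, was above both chemicals. Its brightest probe set gave ratios of -0.09, 0.68, 0.57 and 0.77.

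Lpin1, a phosphatidate phosphatase induced in fasting, gave 10.20 and 9.66 at 14 days against 6.83 in olive oil and 8.04 to 9.13 in saline, a ratio of 3.10 (limma adjusted p = 0.19). It gave 10.31 and 9.68 at 28 days against 8.27 and 7.08 to 9.36. Ikzf1, a transcription factor of lymphoid cells, was on the low side, at 5.02 and 5.54 at 28 days against 6.67 in olive oil and 6.17 to 6.82 in saline. It was also below all 5 controls at 4 h, at 5.61 and 5.58 against 6.64 and 6.09 to 6.81, and at 14 days, at 5.02 and 5.27 against 6.47 and 5.37 to 6.39. At 20 h it gave 5.34 and 5.02 against 5.29 and 5.72 to 6.48, where the olive oil array was as low as the hydrocarbons. The summed lymphocyte markers were below all 5 controls with DBP at 14 days, at 8.769 against 9.153 with olive oil and 8.917 to 9.235 with saline. With DMBA they were so at 28 days, at 8.643 against 8.796 and 8.76 to 8.937. On the other hydrocarbon arrays they lay inside the range of the controls, and the part of these cells was not tested.

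**Figure D4:**
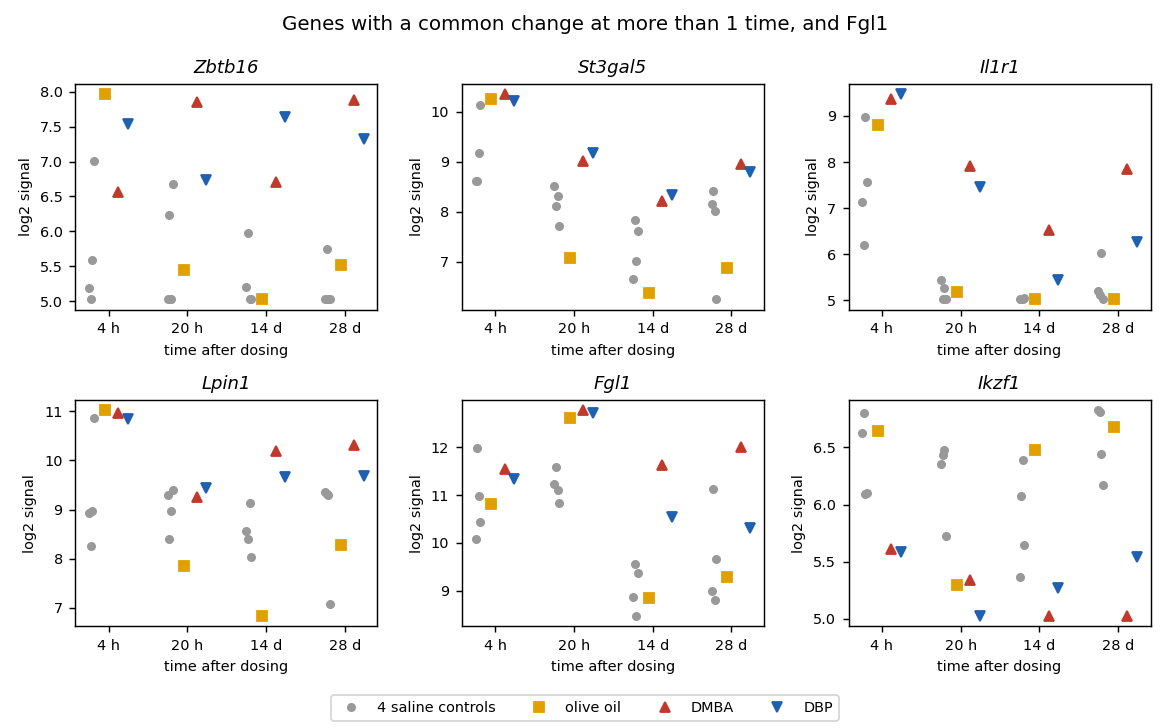
Log2 signal of Zbtb16, St3gal5, Il1r1, Lpin1, Fgl1 and Ikzf1 against time after dosing, 1 point per array, for DMBA, DBP, olive oil and the 4 saline controls. At 28 days DMBA and DBP stand above all 5 controls for Zbtb16, St3gal5, Il1r1 and Lpin1, and below them for Ikzf1.

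Several common changes rested on 1 of a gene's probe sets. H2-D1, a class I histocompatibility gene, had one probe set at 7.21 and 7.26 at 14 days against 5.05 in olive oil and 5.25 to 7.00 in saline (ratio 2.18, limma adjusted p = 0.084), while its brighter one gave a ratio of -0.19. Ccnd1, cyclin D1, had one probe set at the floor with both chemicals at 20 h against 6.21 in olive oil and 5.99 to 6.77 in saline, while its brighter one gave 7.32 and 7.23 against 7.35 and 7.61 to 8.23. Vim, the intermediate filament of mesenchymal cells, gave ratios of -1.20 and -0.43 at 4 h by its 2 probe sets. Idi1, an enzyme of the cholesterol pathway, was higher by both of its probe sets at 14 days, with ratios of 1.66 and 1.01. Max, the partner of Myc, gave 5.40 and 5.02 at 4 h against 6.45 in olive oil and 5.66 to 5.84 in saline.

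The rule for named genes also picked changes of 1 chemical outside the acute phase list. Egr1, an immediate early factor, stood at 9.19 with DBP and 8.20 with DMBA at 14 days, against 6.66 in olive oil and 7.11 to 8.39 in saline. Mycn gave 7.41 with DBP and 6.41 with DMBA at 14 days, against 5.02 and 5.02 to 7.09. In both genes the DMBA array was well above olive oil too and lay inside the saline range. Gadd45g, a growth arrest gene, was at the floor with DBP and at 5.79 with DMBA at 20 h, against 7.67 in olive oil and 5.58 to 6.51 in saline, so that the olive oil array was the high one. Cyp2b9, a female-biased cytochrome P450, gave 8.60 with DMBA and 5.38 with DBP at 28 days, against 6.30 in olive oil and 5.02 to 6.49 in saline.

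Averaged over the 4 times, 9 probe sets were called against olive oil by limma, 0.049%, of which 3 were higher, and 31 were called in olive oil against saline, 0.169%. Herpud1 was 1.14 above olive oil (adjusted p = 0.026) and 0.31 above saline (adjusted p = 0.26). Against saline alone 401 probe sets were called, 2.19%. Against the mean of all 5 controls 126 were called, 0.687%, with 69 higher and 57 lower, and 87 of them were above the floor on all 28 arrays. All 126 were also called against saline, and 1 of them, Gm6958, was called against olive oil. With the title of each array, which recurs at the 4 times, as a random block, 56 of the 126 were called, and Herpud1 was no longer called against olive oil (limma adjusted p = 0.0545). The reference of 5 controls is mostly saline, so that the ratio to olive oil and its adjusted p are given beside each value. The genes named from these 126 were chosen after their values were seen.

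Among the higher genes, Il1r1 rose by 1.73 over the 5 controls (SE 0.25, limma adjusted p = 0.0030) and stood 1.53 over olive oil (adjusted p = 0.34), with all 8 hydrocarbon arrays above the control mean of their time. Zbtb16 rose by 1.69 (adjusted p = 0.0049) and stood 1.29 over olive oil (adjusted p = 0.70). Fgl1 rose by 1.38 (adjusted p = 0.030) and stood 1.22 over olive oil (adjusted p = 0.89). St3gal5 rose by 1.15 (adjusted p = 0.028, and 0.056 with the title block) and stood 1.49 over olive oil (adjusted p = 0.26). The brightest probe sets of Zbtb16 and St3gal5 were called as well, at 0.53 and 0.43 over the 5 controls, the second not with the title block (adjusted p = 0.075). Cdkn1a rose by 1.44 (SE 0.24, adjusted p = 0.0072) and stood 0.94 over olive oil (adjusted p = 1). Mt2 rose by 1.47 (adjusted p = 0.020) and stood 0.98 over olive oil (adjusted p = 1), and each of these had 7 of 8 arrays above the control mean. Socs3, Serpina3n, Saa4, Pidd1 and Fkbp5 were called too against the 5 controls, with ratios to olive oil of 0.34 to 0.73 that were not called (adjusted p from 0.87 to 1). Cyp4a14 rose by 2.07 (SE 0.47, adjusted p = 0.0497) but stood only 0.34 over olive oil (adjusted p = 1). With the title block, the calls of Cyp4a14 (limma adjusted p = 0.069), Socs3 (0.075) and the Saa4 probe set with the ratio of 0.34 (0.054) were lost.

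Among the lower genes, Sucnr1, the succinate receptor, fell by 1.02 on the log2 scale (SE 0.12, limma adjusted p = 0.00032) and was 0.33 below olive oil (adjusted p = 1), with 0 of 8 arrays above the control mean. Ikzf1 fell by 0.97 (SE 0.14, adjusted p = 0.0030) and was 0.97 below olive oil, where the unadjusted p was 0.00014 and the adjusted p 0.18. Hhex, a homeobox factor of liver development, fell by 0.60 (adjusted p = 0.026) and was 0.58 below olive oil (adjusted p = 0.70). Gpam fell by 0.49 (adjusted p = 0.043) and was 0.08 below olive oil (adjusted p = 1). Ghr, the growth hormone receptor, Hsd3b5 and Mup5, which depend on male growth hormone pulses, and Car3 were also called lower, with ratios to olive oil of -0.22 to 0.07 (adjusted p = 1). With the title block, the calls of Gpam and Hsd3b5 (adjusted p = 0.067 each), Ghr (0.068) and Mup5 (0.075) were lost.

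Genes of other pathways were counted in the same way, beside the shares of 3.57% to 4.67% above and 3.58% to 5.97% below over all genes. Interferon genes, 19 measured, had both chemicals above the controls for 1, 1, 4 and 3 genes at the 4 times, with Igtp, Oas1a, Rsad2 and Stat2 at 14 days, and below them for 1, 0, 0 and 2. Heat shock genes, 12 measured, had 3, 1, 0 and 0 above, with Dnaja1, Hspa8 and Hsph1 at 4 h, and 0 below at each time. Immediate early genes, 22 measured, had 3, 0, 2 and 1 above, with Dusp1, Fos and Jun at 4 h, and 1, 2, 0 and 1 below. Of 21 genes of DNA replication and mitosis, 1, 2, 1 and 1 were above and 2, 0, 1 and 1 below. Of 28 DNA repair genes, 1, 1, 0 and 0 were above and 2, 0, 0 and 2 below. Of 17 Nrf2 targets, 0, 0, 2 and 1 were above and 0, 2, 0 and 1 below, and of 25 targets of the drug receptors CAR and PXR, 2, 1, 2 and 3 were above and 0, 2, 1 and 4 below. Of 18 endoplasmic reticulum stress genes, 3, 2, 0 and 0 were above, with Chac1, Dnajb9 and Herpud1 at 4 h, and 0, 0, 0 and 1 below.

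**Figure D5:**
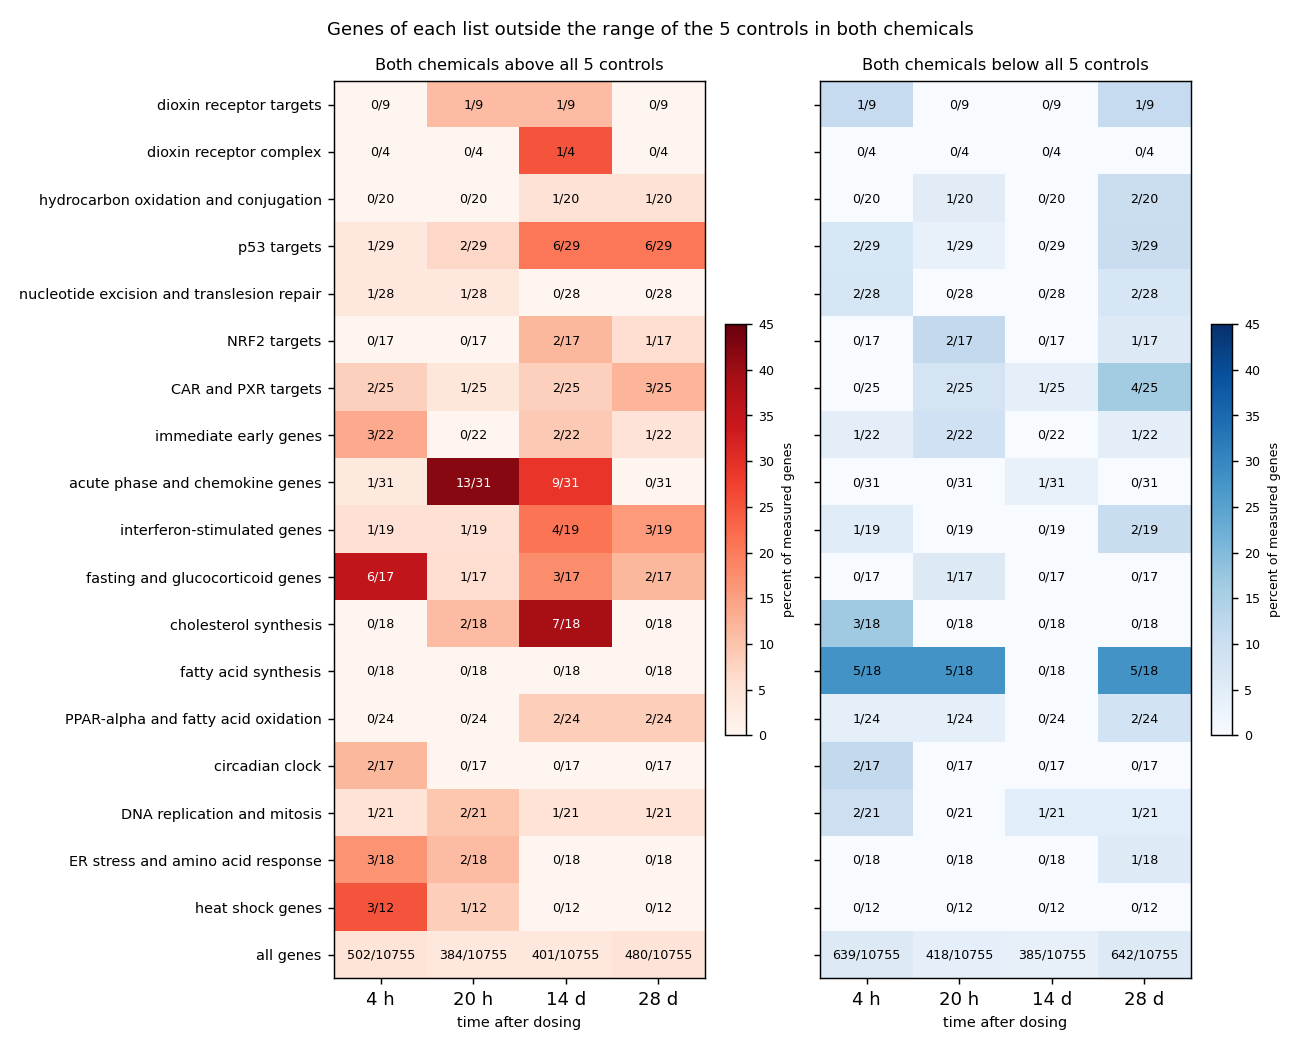
Number of genes out of those measured in each list with both DMBA and DBP above (left) or both below (right) all 5 controls, by time after dosing, with colour for the percent of measured genes and all genes in the last row. The acute phase list stands out at 20 h with 13 of 31 genes above, the cholesterol list at 14 days with 7 of 18, the fasting list at 4 h with 6 of 17, and the p53 list at 14 and 28 days with 6 of 29 each.

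A list of genes that the study names from PCR measurements in carcinogen-dosed mouse liver was chosen by the study and is not independent evidence. Of 30 measured, 4, 3, 4 and 5 had both chemicals above the controls, and 0, 0, 0 and 1 below, with 0 called by limma against olive oil and 4, 1, 5 and 1 at an unadjusted p under 0.05. They were Ddit4, Igfbp1, Jun and St3gal5 at 4 h, Cdkn1a, Mbd1 and St3gal5 at 20 h, Btg2, Ccng1, Cdkn1a and Ddit4 at 14 days, and Cdkn1a, Lrp1, Mdm2, Plk2 and St3gal5 at 28 days. The paper lists Hhex among the genes that rose in PCR measurements at 48 h after chrysene, another hydrocarbon. In the arrays read here Hhex lay on the opposite side, below all controls from 20 h on. It gave 9.62 and 9.12 at 28 days against 10.27 in olive oil and 10.14 to 10.79 in saline. The chemical, dose, time and method differed, with no array here at 48 h, and the reason for the opposite direction was not tested.

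Hepatocyte markers were high on every array. The summed signal of the 10 markers, on the log2 scale, ran from 16.29 to 16.35 with DMBA, 16.32 to 16.48 with DBP, 16.15 to 16.24 with olive oil and 16.28 to 16.79 with saline. At each time olive oil was below every saline control and below both chemicals. At 14 days both chemicals lay below the saline range as well, at 16.35 and 16.34 against 16.37 to 16.44. So did DMBA at 28 days, at 16.29 against 16.31 to 16.77. The endothelial markers ran from 11.2 to 11.47 with DMBA and 10.89 to 11.46 with saline, and 5 of 12 had both chemicals above all controls at 28 days, where the share over all genes was 4.46%. Their sum at 28 days was 11.47 with DMBA, 11.44 with DBP, 11.39 with olive oil and 10.98 to 11.3 with saline, so that olive oil was above every saline control too, and the median olive oil minus saline difference of the markers was 0.35. Among the 5 was Stab2, a scavenger receptor of sinusoidal endothelium, at 8.15 and 8.15 against 7.75 in olive oil and 7.53 to 7.62 in saline. Pancreatic acinar markers ran from 10.37 to 10.95 with the hydrocarbons and 10.6 to 11.22 with saline. At 4 h both chemicals were below all 5 controls, at 10.48 and 10.67 against 10.7 with olive oil and 10.7 to 10.98 with saline. They were so again at 28 days, at 10.72 and 10.86 against 10.96 and 10.87 to 11.22. At 20 h only DBP was, at 10.38 against 10.49 and 10.99 to 11.08, and at 14 days only DMBA, at 10.37 against 10.82 and 10.6 to 11.04. The part of these cell types in the results was not tested.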

How the data were processed

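Liver RNA pooled from 5 mice was hybridised to 1 Affymetrix array per chemical and time. The authors deposited linear signal intensities for 22690 probe sets on 52 arrays, with software and scaling not given in the sources used here. Probe set names belong to another array design than the one the methods name. After 64 control probe sets were left out, each array was divided by its median, values under the 30th percentile of all signals were raised to that floor, and log2 signals were taken of these deposited linear values. The 18349 probe sets that exceeded this floor on 4 or more of the 52 arrays were kept. Array medians ran from 40.5 to 205 in the 28 arrays used. GEO's platform annotation gave 1 symbol to 20380 probe sets, several to 691 and none to 1555, and probe sets with several were not named. A gene was read from its brightest kept probe set unless another is given, and names ending in _s_at or _x_at mark probes shared with other transcripts. Among the named results, the common changes of Zbtb16, H2-D1 and Vim rest on such probe sets, as do changes of DMBA alone in Mt1 and Saa2. Socs3 was a common change at 14 days by one such probe set and was called over the mean of times by another.

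Hydrocarbon, olive oil and saline means at each time were fitted in 1 model over 28 arrays, with 16 residual degrees of freedom, by limma 3.58.1 in R 4.3.3 with a variance trend and Benjamini-Hochberg adjustment over all probe sets tested at a threshold of 0.05. The number of arrays limits the precision, and nothing says how far the saline controls were separate groups of mice beyond their titles. Python 3.11.15 with matplotlib 3.10.9 made the plots.

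The gene lists, the choice of chemicals and the tests were made with earlier results of these data known. The rule for named genes picks all dioxin receptor genes, 10 p53 targets, at each time the 10 common changes, 5 changes of each chemical alone and 5 olive oil departures with the largest ratios each way, the called probe sets, and the 4 members of each list that moved most. The text prints a part of these, and that part and all other names were chosen after their values were seen. Alternatives were other scalings, floors, filters, references and fits, and leaving out each title other than olive oil. A result without a title, such as DMBA or the DMN control, lacks its arrays at all 4 times.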

Additional observations from a re-analysis of the deposited data

Results flagged for a closer look

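For 5 probe sets the ratio of the hydrocarbons to olive oil differed between the first day (4 h and 20 h) and the later times (14 and 28 days), by a limma contrast of the difference itself, 0.0272% of the probe sets tested. The first-day ratio minus the later ratio was 0.77 for Loxl4 (adjusted p = 0.0192), 0.58 for Fmr1 (adjusted p = 0.000988), -0.76 for Gm6958 (adjusted p = 0.000988), -1.17 for Thra (adjusted p = 0.0172) and 0.63 for a probe set without a gene name (adjusted p = 0.00778), all by limma. Loxl4, Fmr1 and the unnamed probe set were at the floor with both chemicals at 14 and 28 days while olive oil stood at 5.77 and 5.82, at 5.87 and 5.33, and at 5.92 and 5.24. For Thra the olive oil array was above the floor at 4 h and 20 h, at 6.02 and 5.79, and DBP at 14 days, at 5.75. Gm6958 was above the floor with both chemicals, at 6.06 and 6.25 at 14 days and at 5.87 and 5.72 at 28 days, where olive oil stood at 5.35. All 5 are dim probe sets, above the floor in 2 to 7 of the 28 arrays.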

How the results depend on the processing

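Counts of called probe sets depended on the scaling, the floor and the filter, and the cause was not tested. They are given for the contrasts with olive oil at 4 h, 20 h, 14 days and 28 days, their mean and the first day minus later (7, 10, 70, 5, 9 and 5), and then for olive oil against saline at the 4 times (15, 26, 86 and 10), where they moved by over 1.5 times. With the values as deposited they were 0, 1, 0, 1, 1 and 0, then 0, 3, 0 and 4. With a floor at the 50th percentile they were 14, 45, 14 and 8 at 4 h, 14 days, 28 days and first minus later, then 30, 53 and 26 at 4 h, 14 days and 28 days. Without a floor they were 1, 0, 12, 0, 2 and 0, then 3, 8, 16 and 3. Without the filter they were 36, 49, 193, 28, 163 and 170, then 47, 68, 220 and 37, and with a filter at 14 of 28 arrays 1, 0, 4, 0, 2 and 0, then 1, 2, 2 and 1. With a fit per time they were 94, 119 and 76 at 4 h, 20 h and 28 days, then 102, 153 and 89. With all 52 arrays in the fit they were 4, 2, 2 and 1 at 20 h, 28 days, over the mean and first minus later, then 16 at 20 h. Without the variance trend they were 1, 4, 3, 4 and 1 at 4 h, 20 h, 28 days, over the mean and first minus later, then 9, 12, 57 and 4. Quantile normalization gave 4 at 20 h. Against all 5 controls they were 13, 9 and 126 at 14 days, 28 days and over the mean, and against saline 13, 59, 16, 16, 401 and 8.

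One title at a time was left out, with its arrays at all 4 times, and olive oil was never left out. This gave 2 to 37, 6 to 45, 66 to 108, 4 to 25, 11 to 35 and 4 to 42, then 4 to 25, 17 to 196, 65 to 110 and 7 to 65. The highest values of 196 and 65 came without the Saline control. Without DMBA or DBP, 1 hydrocarbon array remained at each time. The 171 common changes became 54 with the higher floor, 509 without one, 639 at 1.5-fold and 25 at 3-fold, the 1127 changes of 1 chemical 287, 3267, 4689 and 188, and the 161 olive oil departures 34, 586, 876 and 23. Leaving out 1 saline title gave 192 to 212, 1137 to 1160 and 129 to 151. In alternatives chosen after seeing the data, with the values as deposited, acute phase changes of DMBA alone were 4 at 14 days and 5 at 28 days, and genes above the controls were 0 for cholesterol synthesis at 14 days, 1 for p53 targets at 14 days and 2 for fasting at 4 h. Of 476 values of named genes, 419 kept their direction and side of the threshold, 35 lost the call, 18 gained it and 4 reversed. The 4 reversed against saline in place of olive oil, at -0.10 for Bhlhe40 at 14 days, -0.15 for Per1 at 20 h, -0.0206 for Apln at 4 h and -0.0243 for Man1a2 at 14 days. Without the Saline control, Lpin1 at 14 days (limma adjusted p = 0.00402), Bhlhe40 at 14 days (adjusted p = 0.0366) and St3gal5 over the mean of times (adjusted p = 0.00258) were called. The groups compared share no replicate number, so that no pairing between them could be fitted. With the recurring titles as a replicate block (random, chosen after seeing the data, consensus correlation 0.0397), the contrasts with olive oil gave 7, 10, 69, 5, 8 and 5 calls, those of olive oil with saline 15, 27, 87 and 9, and the mean of times against all 5 controls 56 in place of 126. Dim probe sets near the floor, 1 array per chemical and pooled mice limit what these arrays can show.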
